A study of Azumapecten farreri with 9 samples.

Results

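The genes described here are a suppressor of cytokine signaling 2-like gene (SOCS2-like, evm.TU.scaffold15767.29) and a gene for a transcription factor of the STAT family, described as 5B-like (STAT5B-like, evm.TU.scaffold32463.6) of the Zhikong scallop Chlamys farreri. They are 2 of the 21617 genes in the deposited expression table, taken by their gene identifiers, and both passed the expression filter that left 11678 genes for testing. The pair was chosen with its levels in these same libraries known, so its levels and differences are given as a description and carry no test. RNA was measured in hemocytes, the circulating immune cells of molluscs, by poly(A) RNA sequencing of 9 libraries in 3 groups of 3. Animals of the first group had been injected with PBS (phosphate-buffered saline), and those of the others with exosomes, small membrane vesicles that cells release, either normal ones or ones linked to stimulation with LPS (bacterial lipopolysaccharide). For the 6 exosome libraries, title and group label disagree: those with LPS_T in the title are labelled as having received normal exosomes, and those with NOR_T as having received exosomes of LPS stimulation. The groups are therefore called PBS, NOR_T and LPS_T by title, and no direction is given to LPS. The labels give no strain, age, dose or time after injection, and are silent on whether each library is a different animal or a pool. All p-values below therefore reflect only how far these libraries spread, and that spread may be technical.

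In animals, cytokine receptors of the JAK-STAT pathway carry Janus kinases (JAKs) on their inner side. A bound receptor activates the kinases, which phosphorylate STAT proteins; these pair, enter the nucleus and switch on target genes. Genes of the SOCS family are among the targets, and the SOCS proteins then bind the kinases or the receptors through an SH2 domain and bring a ubiquitin ligase to them through the SOCS box, which ends the signal. In mammals STAT5A and STAT5B are the STATs of growth hormone, prolactin and interleukin-2 signalling, and SOCS2 is the inhibitor best known for restraining growth hormone signalling. In Drosophila the same circuit runs from the receptor Domeless through the kinase Hopscotch to Stat92E, and Socs36E acts as its feedback inhibitor, with known roles in blood cells and in immunity.

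The libraries held about 5320000 to 12300000 fragments. PBS 1 stood apart, with 17.8% of its counts on a pair of neighbouring genes of scaffold38697 that took 0.0318% to 0.0979% elsewhere. Of the hemocyte markers, a laccase-3-like gene was measured at an FPKM (fragments scaled to gene length and depth) of 493 to 947. An integrin alpha-9-like gene was at 117 to 207 and a peroxidasin gene at 12.8 to 32.6. The highest scavenger receptor and macrophage mannose receptor genes were at 2.72 to 7.27 and 3.28 to 6.31, and a goose-type lysozyme did not exceed 0.432. The 87 listed genes of ciliated epithelium, of which 71 were tested and none was at 0 in every library, had a summed level of 719.8 to 911 CPM (counts relative to the TMM-scaled size of a library) in PBS, 510.2 to 532 in NOR_T and 1256 to 1307 in LPS_T. The 29 gonad and gamete genes, none at 0 in every library, moved in the same order, from 1504 to 1573 CPM in NOR_T through 1825 to 1952 in PBS to 2362 to 2603 in LPS_T. Of the 51 hemocyte genes 16 were tested. Together the 51 were at 4423 to 4805 CPM in PBS, 3761 to 4003 in NOR_T and 3353 to 3422 in LPS_T. Without the laccase-3-like gene they were at 1507 to 1623, 1587 to 1744 and 1700.3 to 1742. The 19 muscle genes were at 6714 to 7253 CPM in PBS, 7324 to 7828 in NOR_T and 6721 to 7494 in LPS_T, which overlapped both. Of the 141 nerve genes 15 were tested, and their summed level had the order of the pair, from 2694 to 2858 CPM in PBS through 2948 to 3170 in NOR_T to 4376 to 4748 in LPS_T. Without 1 neuropeptide S receptor-like gene they were at 1765 to 1939, 1800.0 to 1921 and 1426 to 1523 CPM. In such bulk samples fewer cells of a type and less RNA per cell cannot be told apart, and the part of other cells in the results below was not tested.

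The SOCS2-like gene, the feedback inhibitor of the pair, was at 281.6, 248.9 and 249.7 CPM in PBS 1, 2 and 3. It was at 364, 389 and 376 CPM in NOR_T 1, 2 and 3, and at 1518, 1576 and 1476 CPM in LPS_T 1, 2 and 3. No library of one group overlapped another group: every NOR_T library lay above every PBS library, and every LPS_T library lay far above both. The group levels were 260.1 ± 18.6 CPM in PBS, 376 ± 12.4 in NOR_T and 1523 ± 50.3 in LPS_T (mean ± SD, n = 3 each). LPS_T exceeded PBS by 2.55 (SE 0.06) on the log2 scale, or 5.86-fold, and NOR_T by 4.05-fold (log2 2.02, SE 0.06). The difference between NOR_T and PBS was 0.53 (SE 0.06), or 1.45-fold. The SE is the fitted difference divided by the square root of its F statistic in the edgeR quasi-likelihood fit across all genes, and is approximate. Ordered by size, the rise of the gene stood 87th of 11678 in LPS_T against PBS, 363rd in LPS_T against NOR_T and 1252nd in NOR_T against PBS. The gene was thus among the strongest rises of the first comparison and one of many moderate ones in the last.

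On the length-corrected scale the SOCS2-like gene was at 74.1, 95.4 and 94.4 FPKM in PBS, at 140.4, 142 and 140.4 FPKM in NOR_T and at 577, 586 and 579 FPKM in LPS_T. The order of the groups was the same as in CPM and again no ranges overlapped. PBS 1 was the lowest PBS library in FPKM and the highest in CPM; the FPKM were scaled by the authors and the CPM by TMM, whose factor was 0.81 in PBS 1 and 0.989 to 1.07 elsewhere. Between 1209 and 4036 fragments were behind each PBS and NOR_T value and 17173 to 17638 behind each LPS_T value. By mean FPKM among the 11678 tested genes, the gene stood 713th in PBS, 523rd in NOR_T and 184th in LPS_T, so it went from an abundant transcript to one of the most abundant.

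The STAT5B-like gene, the transcription factor of the pair, was at 152.3, 151.9 and 167.7 CPM in PBS 1, 2 and 3. It was at 196.7, 182.1 and 197.2 CPM in NOR_T 1, 2 and 3, and at 285.7, 270.0 and 273.6 CPM in LPS_T 1, 2 and 3. The groups stood in the same order as for the SOCS2-like gene, without overlap, but closer together: the highest PBS library (167.7 CPM) and the lowest NOR_T library (182.1 CPM) were near each other. The group levels were 157 ± 9.02 CPM in PBS, 192 ± 8.60 in NOR_T and 276 ± 8.23 in LPS_T (n = 3 each). LPS_T exceeded PBS by 0.81 (SE 0.06) on the log2 scale, or 1.76-fold, and NOR_T by 0.53 (SE 0.06), or 1.44-fold. NOR_T exceeded PBS by 0.29 (SE 0.06), or 1.22-fold. In FPKM the libraries were at 25.8, 37.5 and 40.8 in PBS, at 48.8, 42.8 and 47.4 in NOR_T and at 69.8, 64.6 and 69.1 in LPS_T. The ranges were apart here too, by the narrow gap from 40.8 FPKM in PBS 3 to 42.8 FPKM in NOR_T 2. The gene stood 1447th by mean FPKM in PBS, 1235th in NOR_T and 912th in LPS_T.

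**Figure D1:**
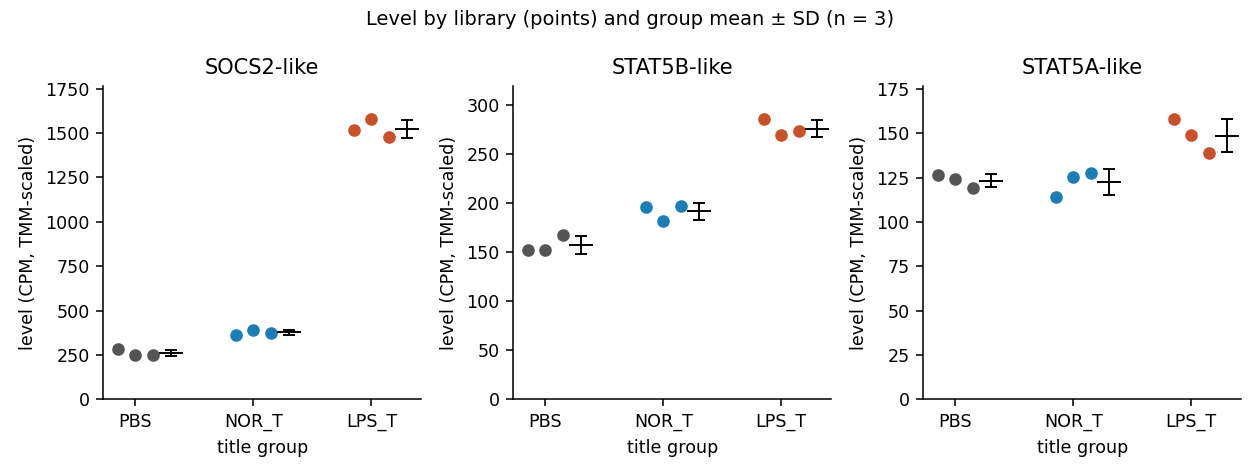
CPM of the SOCS2-like, STAT5B-like and STAT5A-like genes in each of the 9 libraries (points), with the mean and SD of each group of 3 (horizontal lines with error bars), each gene on an axis of its own. Both genes of the pair lie in the order PBS, NOR_T, LPS_T with no overlap, and the SOCS2-like gene reaches 1476 to 1576 CPM in LPS_T.

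A CPM order of PBS below NOR_T below LPS_T without overlap was found in 363 of the 11678 tested genes, or 3.11%. Ranges that lay wholly higher were found in 24.7% of tested genes for LPS_T over PBS, in 18.6% for NOR_T over PBS and in 20.7% for LPS_T over NOR_T. The comparisons with PBS share the 3 PBS libraries and are not independent of each other. The summed ciliary and gonad markers lay lower in NOR_T than in PBS, where both genes of the pair lay higher. In LPS_T the markers and the pair both lay above PBS.

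The SOCS2-like transcript was the more abundant of the pair in every library, and the margin differed between groups. The ratio of its FPKM to that of the STAT5B-like gene was 2.87, 2.55 and 2.31 in PBS and 2.88, 3.32 and 2.96 in NOR_T. It was 8.26, 9.07 and 8.38 in LPS_T. The PBS and NOR_T ratios nearly met, at 2.87 in PBS 1 and 2.88 in NOR_T 1, and every LPS_T ratio was far higher. The group ratios were 2.58 ± 0.282 in PBS, 3.05 ± 0.236 in NOR_T and 8.57 ± 0.438 in LPS_T (mean ± SD, n = 3 each). On the log2 scale the SOCS2-like difference exceeded the STAT5B-like difference by 1.74 in LPS_T against PBS, by 1.49 in LPS_T against NOR_T and by 0.25 in NOR_T against PBS. Because both genes were chosen on these levels, the ratio too is a description without a test.

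**Figure D2:**
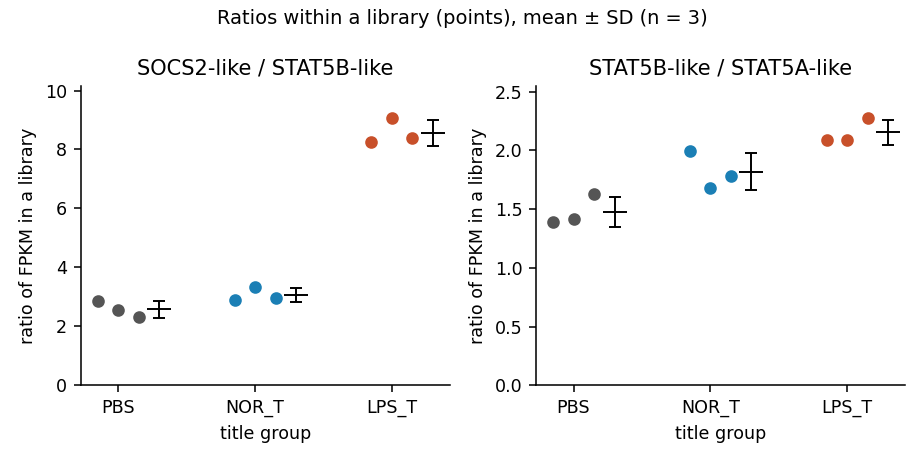
Ratio of SOCS2-like to STAT5B-like FPKM and of STAT5B-like to STAT5A-like FPKM in each library (points), with the mean and SD of each group of 3 (horizontal lines with error bars). The SOCS2-like to STAT5B-like ratio is 2.31 to 3.32 in PBS and NOR_T and 8.26 to 9.07 in LPS_T.

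The other STAT gene that the descriptions name is a STAT5A-like gene (evm.TU.scaffold545.33), which is not of the pair and was tested. It was at 126.2, 124.4 and 119.2 CPM in PBS, at 114.2, 125.3 and 127.8 CPM in NOR_T and at 157.8, 149.3 and 138.9 CPM in LPS_T. PBS and NOR_T overlapped, and all LPS_T libraries lay above both. The gene was higher in LPS_T than in PBS by 0.27 on the log2 scale (SE 0.07, edgeR adjusted p = 0.00551) and higher in LPS_T than in NOR_T by 0.28 (SE 0.07, edgeR adjusted p = 0.00597). NOR_T against PBS gave -0.01 (SE 0.07, edgeR adjusted p = 0.943). Limma on log2(FPKM + 1) ended both calls, with adjusted p = 0.0584 and 0.303, and scaling by library size alone ended the second, with an edgeR adjusted p = 0.0601. By FPKM the STAT5B-like transcript was 1.48 ± 0.129 times as abundant as the STAT5A-like transcript in PBS, 1.82 ± 0.159 times in NOR_T and 2.15 ± 0.107 times in LPS_T. The STAT5A-like and STAT5B-like genes carry the same 8 GO (Gene Ontology) terms and the same KEGG orthology entry in the deposited table. Whether close stretches of the 2 genes shared reads was not tested. No other SOCS gene matched by description, and no JAK gene matched, so these were not analysed here.

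The genes of the pair sit on different scaffolds of an assembly whose build is not given in the sources used here. At its locus the SOCS2-like gene spans 2608 bases of scaffold15767, from 556843 to 559450 on the plus strand, and is gene 19 of 26 there. Its GO terms name protein kinase inhibition, cytokine-mediated signalling and the negative regulation of the JAK-STAT cascade and of insulin receptor signalling. The STAT5B-like gene spans 28570 bases of scaffold32463, from 141832 to 170401 on the minus strand, and is gene 6 of 18. Its terms name DNA binding, transcription and the JAK-STAT cascade of growth hormone signalling. The table gives whole gene spans without exons, and the STAT5A-like gene spans 39896 bases of scaffold545.

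The 3 nearest annotated genes on either side of each member were looked at for shared changes. On the lower side of the SOCS2-like gene lie 3 acetylcholine receptor subunit genes, whose FPKM stayed at or below 0.531 in every library. On its higher side, a gene without a description, 11202 bases away, was too low to test. The next gene, also undescribed, was at 11.9 ± 1.04 CPM in PBS, 9.22 ± 1.33 in NOR_T and 9.87 ± 2.28 in LPS_T and passed no test. The third, a CLEC16A-like gene of the kind known in mammals for a part in autophagy, was at 17.6 ± 0.831, 16.7 ± 1.96 and 17.2 ± 1.01 CPM. Its edgeR adjusted p was 0.838 for LPS_T against PBS and 0.690 for NOR_T against PBS. Neither tested neighbour was called in any of the 3 comparisons by edgeR.

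Beside the STAT5B-like gene lies, 6718 bases away on the other strand, a T-complex protein 1 subunit epsilon-like gene, which encodes a subunit of the cytosolic chaperonin that folds actin and tubulin. It moved the opposite way, from 584.6 ± 26.0 CPM in PBS to 281 ± 15.6 in NOR_T and 244 ± 12.2 in LPS_T. It fell by 1.26 on the log2 scale in LPS_T (SE 0.06, edgeR adjusted p = 1.61e-10) and by 1.06 in NOR_T (SE 0.06, edgeR adjusted p = 4.57e-09), both against PBS. An uncharacterized gene further on was low, at 1.06 ± 0.551, 0.556 ± 0.206 and 2.85 ± 0.733 CPM in PBS, NOR_T and LPS_T. It was higher in LPS_T than in NOR_T by 2.35 (SE 0.50, edgeR adjusted p = 0.00256). Its call in LPS_T against PBS (log2 1.36, edgeR adjusted p = 0.0372) was lost without PBS 1, PBS 3, LPS_T 2 or LPS_T 3 and with edgeR's own expression filter (adjusted p = 0.0502). The other 4 neighbours, among them a pair of neuronal acetylcholine receptor alpha-3 genes, stayed at or below an FPKM of 0.740 and were not tested.

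**Figure D3:**
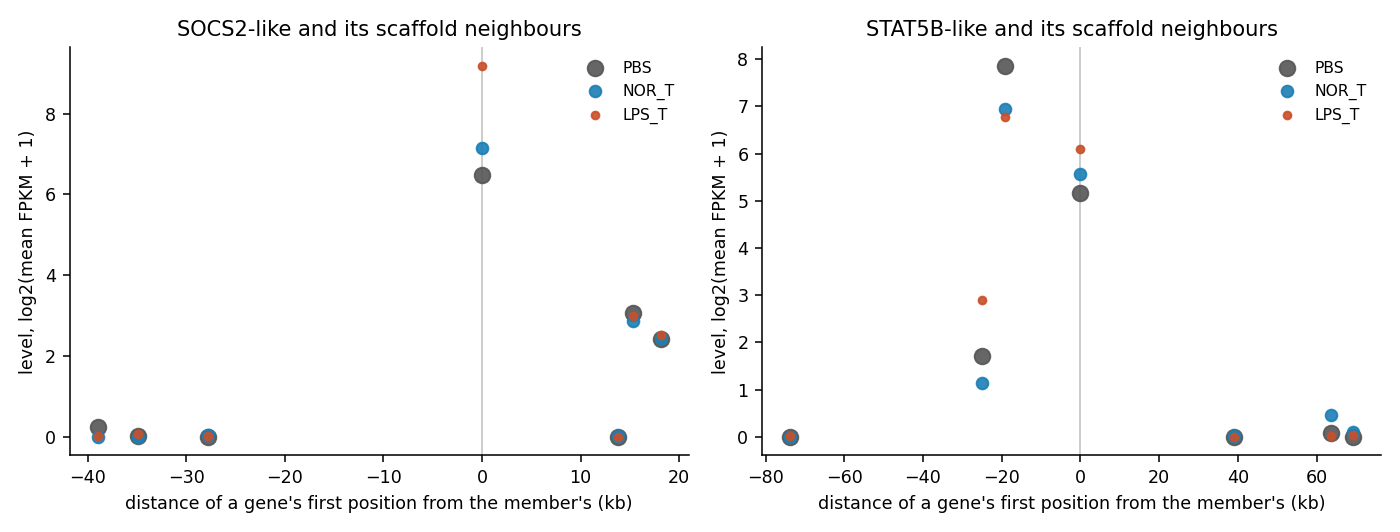
Level of each member (at distance 0) and of its 3 nearest annotated genes on either side, as log2(mean FPKM + 1) of each group (y axis), against the distance of the first position of a gene from that of the member in kilobases (x axis). Most neighbours lie near 0, and the T-complex protein 1 subunit epsilon-like gene beside the STAT5B-like gene is highest in PBS, where the member is lowest.

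The rest of the signalling route, with other inducible feedback inhibitors, was described through 10 lists of genes matched by words in their descriptions. Without the pair, the SOCS and JAK lists held no gene, and the others held 106 genes, of which 75 were tested. The list of other feedback inhibitors alone gave 23 of the 75. In LPS_T against PBS, 19 of the 75 were higher and 14 lower at an edgeR adjusted p under 0.05, or 44%, where 33% of all tested genes were called (17.9% higher and 15.2% lower). In NOR_T against PBS, 11 were higher and 13 lower, or 32%, against 24.9% of all genes (11.4% higher and 13.5% lower). In LPS_T against NOR_T, 11 were higher and 7 lower, or 24%, against 21.5% of all genes (12.6% higher and 8.89% lower). The median log2 difference of the 75 genes was 0.0845, 0.0334 and 0.0614 in these comparisons, where that of all tested genes was 0.0271, -0.00211 and -0.00470. The pool of 75 genes thus held calls in both directions in each comparison and its medians lay near 0. Single lists could be one-sided. In NOR_T against PBS, cytoplasmic tyrosine kinases and adaptors had 3 higher and 0 lower, and SOCS-box genes 0 higher and 4 lower. The medians of single lists ran from -0.58 (2 cytokine receptor and ligand genes, LPS_T against PBS) to 0.38 (6 genes of STAT target types, LPS_T against NOR_T).

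**Figure D4:**
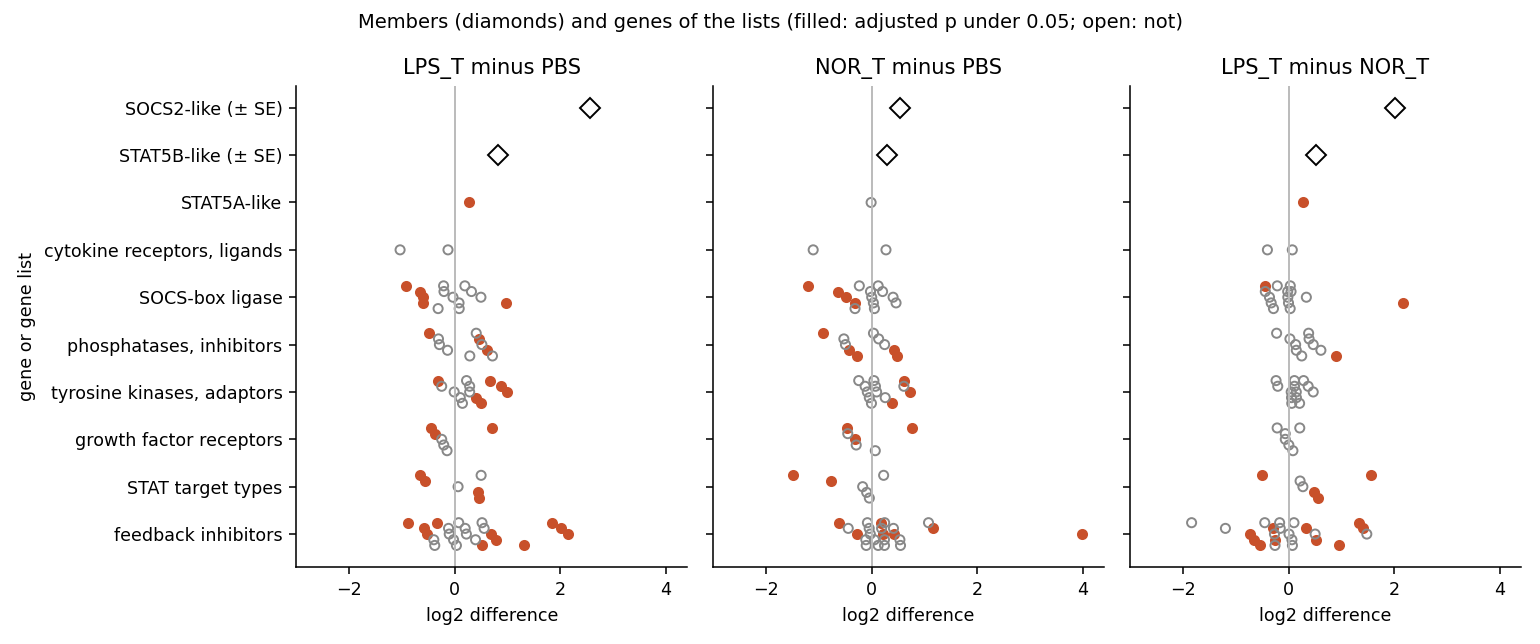
Log2 difference (x axis) of the members (diamonds, whose SE is smaller than the symbol) and of each tested gene of the pathway lists (circles, filled where the edgeR adjusted p is under 0.05) in the 3 comparisons. The pool of all lists holds higher and lower genes in each comparison, with 19 called higher and 14 lower in LPS_T against PBS.

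At the top of the route, the word list for cytokine receptors and ligands held 6 genes, of which 2 were tested and none was called by edgeR, DESeq2 or limma in any comparison. At an unadjusted edgeR p under 0.05 there was 1 gene in each comparison with PBS and none between LPS_T and NOR_T. They were low: a cytokine receptor-like factor 3 gene at 1.80, 2.13 and 1.62 CPM and an interleukin-17-like gene at 1.67, 0.778 and 0.816 CPM, as means in PBS, NOR_T and LPS_T. The growth factor and insulin receptor list had 6 tested genes of 12, with 1 higher and 2 lower in each comparison with PBS. That was 50% each time, where 33% of all tested genes were called in LPS_T and 24.9% in NOR_T. None of the 6 was called in LPS_T against NOR_T, where 21.5% of all genes were. There 1 of them had an unadjusted edgeR p under 0.05, and 1 was called by DESeq2 or without PBS 1. An FGFR4-like gene, a receptor of fibroblast growth factors, rose from 11.6 CPM in PBS to 19.6 in NOR_T (log2 0.76, SE 0.15, edgeR adjusted p = 0.00155) and 18.8 in LPS_T (log2 0.70, SE 0.15, edgeR adjusted p = 0.00201). An epidermal growth factor receptor-like gene fell from 137 CPM in PBS to 110.0 in NOR_T and 105 in LPS_T (edgeR adjusted p = 0.00147 and 2.29e-04). Scaling by library size alone ended both of these calls, with edgeR adjusted p = 0.168 and 0.0859, as did limma on log2(FPKM + 1), with adjusted p = 0.525 and 0.389.

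Of the cytoplasmic tyrosine kinases and adaptors, which carry a receptor's signal inward, 13 of 18 were tested. In LPS_T against PBS 5 were higher and 1 lower, and in NOR_T against PBS 3 were higher and none lower. These were 46.2% and 23.1% of the 13, where 33% and 24.9% of all tested genes were called. Between LPS_T and NOR_T edgeR, DESeq2 and limma called none, against 21.5% of all genes by edgeR. No unadjusted edgeR p was under 0.05 there for these 13 genes. An SHC1-like adaptor gene (evm.TU.scaffold3987.5), of the kind that links receptors to Ras, rose from 24.3 CPM in PBS to 40.3 in NOR_T and 44.6 in LPS_T (log2 0.73 and 0.88, SE 0.11 each, edgeR adjusted p = 1.13e-04 and 1.07e-05). A second SHC1-like gene (evm.TU.scaffold60661.42) was at 4.56, 6.86 and 8.89 CPM and rose in LPS_T against PBS (log2 0.98, edgeR adjusted p = 0.00304) but was not called in NOR_T (log2 0.61, edgeR adjusted p = 0.0591). A gene for a SYK-like kinase, which in mammals acts behind immune receptors, rose from 40.01 CPM in PBS to 60.8 in NOR_T and 63.3 in LPS_T (log2 0.61 and 0.66, SE 0.11 each, edgeR adjusted p = 0.00104 and 3.33e-04). None of the 3 was called between NOR_T and LPS_T.

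The list of phosphatases and other possible regulators of STAT signalling had 10 tested genes of 18. Its genes were matched by words, and whether each raises or lowers the signal was not tested. The list held 2 higher and 1 lower in LPS_T against PBS and 2 higher and 3 lower in NOR_T against PBS. In LPS_T against NOR_T 1 was higher. The shares were 30%, 50% and 10%, against 33%, 24.9% and 21.5% of all tested genes. The 5 calls in NOR_T became 3 without PBS 1 or NOR_T 3, 1 without NOR_T 1 and 0 with limma, and the single call between LPS_T and NOR_T became 3 without PBS 1 or NOR_T 1 and 2 without NOR_T 2. A PTPN1-like gene, whose mammalian namesake dephosphorylates JAK2 and the insulin receptor, was at 8.31 CPM in NOR_T and 15.5 in LPS_T (log2 0.90, SE 0.21, edgeR adjusted p = 0.00543). Its PBS libraries were at 16.9, 7.66 and 11.2 CPM. Against PBS it was not called in LPS_T (edgeR adjusted p = 0.159) or in NOR_T (edgeR adjusted p = 0.111). Receptor-type tyrosine phosphatase alpha-like genes went both ways. One (evm.TU.scaffold22095.1) rose from 14.0 CPM in PBS to 21.5 in LPS_T (log2 0.61, SE 0.15, edgeR adjusted p = 0.00492). Another (evm.TU.scaffold8825.2) fell from 69.6 CPM in PBS to 49.3 in LPS_T (log2 -0.50, SE 0.08, edgeR adjusted p = 1.78e-04), a call that limma on log2(FPKM + 1) ended (adjusted p = 0.129).

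Proteins with a SOCS box but without the SH2 domain of the SOCS family choose other targets for the same kind of ubiquitin ligase. The list of such genes, which also held a Cullin-5 gene of the ligase itself, had 14 tested genes of 21. In LPS_T against PBS 1 was higher and 4 were lower, and in NOR_T against PBS none was higher and 4 were lower. In LPS_T against NOR_T 1 was higher and 1 lower. These were 35.7%, 28.6% and 14.3% of the 14, near or below the 33%, 24.9% and 21.5% of all tested genes. The 4 calls in NOR_T became 2 with scaling by library size alone and 1 with limma. Of 3 genes for SPRY domain-containing SOCS box protein 3-like adaptors, evm.TU.scaffold34531.34 fell from 37.8 CPM in PBS to 19.97 in LPS_T (log2 -0.92, SE 0.11, edgeR adjusted p = 7.31e-06). The other tested one, evm.TU.scaffold55665.9, was at 3.57 CPM in PBS and 3.49 in LPS_T and was not called (log2 -0.0327, edgeR adjusted p = 0.932), and the third was too low to test. A WSB1-like gene, for a WD-repeat protein with a SOCS box, fell from 29.2 CPM in PBS to 18.6 in LPS_T (log2 -0.65, edgeR adjusted p = 6.26e-04), a call that limma on log2(FPKM + 1) and on log2(FPKM + 0.1) ended (adjusted p = 0.130 and 0.149). The single rise was in an ankyrin repeat and SOCS box protein 17 gene, at 27.2 ± 7.30 CPM in PBS, 11.9 ± 1.18 in NOR_T and 53.4 ± 4.67 in LPS_T. It rose by 0.97 in LPS_T (SE 0.15, edgeR adjusted p = 1.28e-04) and fell by 1.20 in NOR_T (SE 0.16, edgeR adjusted p = 4.04e-05), both against PBS on the log2 scale. The mammalian gene of that name is best known from testis, and the order of this gene, NOR_T below PBS below LPS_T, was that of the summed ciliary and gonad markers, whose part in it was not tested. The SOCS2-like gene shared with these markers its highest level in LPS_T and differed from them in NOR_T, where it lay above PBS. What part other cells had in its levels was not tested.

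Downstream, the 6 genes of types known as STAT targets in mammals were all tested. Of these, 2 were higher and 2 lower in LPS_T against PBS, and 2 were lower in NOR_T against PBS. In LPS_T against NOR_T 3 were higher and 1 lower. The shares were 66.7%, 33.3% and 66.7% of only 6 genes, against 33%, 24.9% and 21.5% of all tested genes. A PIM3-like kinase gene, of a family that supports cell survival, was at 1874 ± 53.7 CPM in PBS, 1818 ± 59.2 in NOR_T and 2549 ± 61.6 in LPS_T. It was higher in LPS_T than in PBS by 0.44 (SE 0.05, edgeR adjusted p = 1.31e-05) and than in NOR_T by 0.49 (SE 0.05, edgeR adjusted p = 6.12e-06). A gene for cyclin-D2-like, which drives entry into the cell cycle, fell from 159 CPM in PBS to 100.4 in LPS_T (log2 -0.66, SE 0.10, edgeR adjusted p = 1.36e-04). A pair of genes for interferon regulatory factors, transcription factors of the immune response, had their lowest means in NOR_T. An IRF2-like gene was at 40.03 CPM in PBS, 14.2 in NOR_T and 41.7 in LPS_T, and against PBS it fell by 1.495 on the log2 scale in NOR_T (SE 0.11, edgeR adjusted p = 1.37e-07). The IRF1 gene that follows it by identifier was at 71.9, 42.0 and 48.9 CPM and fell by 0.77 in NOR_T (SE 0.09, edgeR adjusted p = 1.69e-05).

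A further list, of gene types taken as inducible feedback inhibitors, had 23 tested genes of 24. It was matched by words, and the action of each gene was not tested. In LPS_T against PBS 7 were higher and 4 lower, and in NOR_T against PBS 5 were higher and 2 lower. In LPS_T against NOR_T 5 were higher and 5 lower. The shares were 47.8%, 30.4% and 43.5%, against 33%, 24.9% and 21.5% of all tested genes. The 7 calls in NOR_T became 4 without NOR_T 3. Of 3 GADD45 alpha-like genes on scaffold14907, which in mammals are induced by DNA damage and stress and slow the cell cycle, evm.TU.scaffold14907.9 had the smallest adjusted p. It was at 194 CPM in PBS, 260.3 in NOR_T and 689.8 in LPS_T, with log2 differences against PBS of 0.43 in NOR_T (SE 0.06, edgeR adjusted p = 4.58e-05) and 1.83 in LPS_T (SE 0.06, edgeR adjusted p = 2.76e-12). A second, evm.TU.scaffold14907.10, was at 63.1, 74.6 and 108 CPM and rose in LPS_T against PBS (log2 0.77, edgeR adjusted p = 1.05e-05). The third, evm.TU.scaffold14907.8, was at 42.5, 50.3 and 44.8 CPM, highest in NOR_T, and was not called against PBS in LPS_T (log2 0.0756, edgeR adjusted p = 0.571) or in NOR_T (log2 0.24, edgeR adjusted p = 0.0624). A GADD45 beta-like gene of the same scaffold was at 87.1, 71.8 and 139 CPM and was higher in LPS_T than in NOR_T by 0.96 (SE 0.08, edgeR adjusted p = 5.08e-07). DUSP4-like, a phosphatase of MAP kinases, had its highest level in NOR_T, at 57.2 CPM against 25.6 in PBS (log2 1.17, SE 0.11, edgeR adjusted p = 2.02e-06) and 36.3 in LPS_T. A gene for BTG1-like, an antiproliferative protein, fell from 2697 CPM in PBS to 1808 in LPS_T (log2 -0.58, SE 0.06, edgeR adjusted p = 1.65e-06), a call that limma on log2(FPKM + 0.1) ended (log2 -0.40, adjusted p = 0.0542). A tribbles homolog 2-like gene (evm.TU.scaffold724273.1), chosen after its values were seen because it lay farthest out in NOR_T against PBS, was at 20.5, 5.21 and 5.02 CPM in NOR_T and 0.934, 0.867 and 0.278 CPM in PBS (log2 3.98, SE 0.78, edgeR adjusted p = 0.00141). The other tribbles homolog 2-like gene (evm.TU.scaffold61837.2) was at 765 CPM in PBS and 724 in NOR_T and was not called there (edgeR adjusted p = 0.551). Genes of this list thus differed in the group in which they stood highest.

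The genes with profiles most like each member were found by the root mean square (RMS) difference of gene-centred log2 CPM over the 9 libraries, among 8741 tested genes with an informative description. Their direction follows from how they were chosen, so they carry no test. Nearest to the SOCS2-like gene was an ETS-family transcription factor gene (RMS 0.111), at 279 ± 6.05 CPM in PBS, 369.8 ± 18.8 in NOR_T and 1369 ± 65.3 in LPS_T. It was followed by a mitochondrial malonyl-CoA decarboxylase-like gene (RMS 0.115), an enzyme of fatty acid metabolism, at 17.4, 26.0 and 118 CPM. An acyl-CoA synthetase family member 2 gene (RMS 0.196) went from 49.9 CPM in PBS through 76.2 to 231, a carnosine synthase 1-like gene (RMS 0.197) from 30.2 through 33.4 to 134, and a ceramide kinase-like gene (RMS 0.213) from 15.7 through 28.7 to 127. Within 0.2 of this profile lay 5 of 11677 genes, named or not, and the median RMS was 1.14. The RMS is not scaled to the size of the steps, so a large step by itself leaves few genes near.

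The STAT5B-like profile, with its smaller steps, had 383 of 11677 genes within 0.2 and a median RMS of 0.4555. These counts therefore do not tell how rare the pattern of either member is. The nearest were a zinc metalloproteinase nas-14-like gene (RMS 0.0439) at 3224, 3885 and 5353 CPM in PBS, NOR_T and LPS_T, and a stromelysin-1-like gene (RMS 0.0527), a matrix metalloproteinase, at 807, 984.5 and 1347 CPM. An angiomotin-like gene followed (RMS 0.0599), and then a sestrin-1-like gene (RMS 0.0778), in mammals a stress-induced restraint on mTOR, and a calpain-5-like protease gene (RMS 0.0819). The RMS between the members was 0.774, and 543 genes lay nearer to the SOCS2-like gene than the STAT5B-like gene did. From the STAT5B-like side, 10012 genes lay nearer than the SOCS2-like gene, so the members shared the order of the groups and not the size of the steps.

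**Figure D5:**
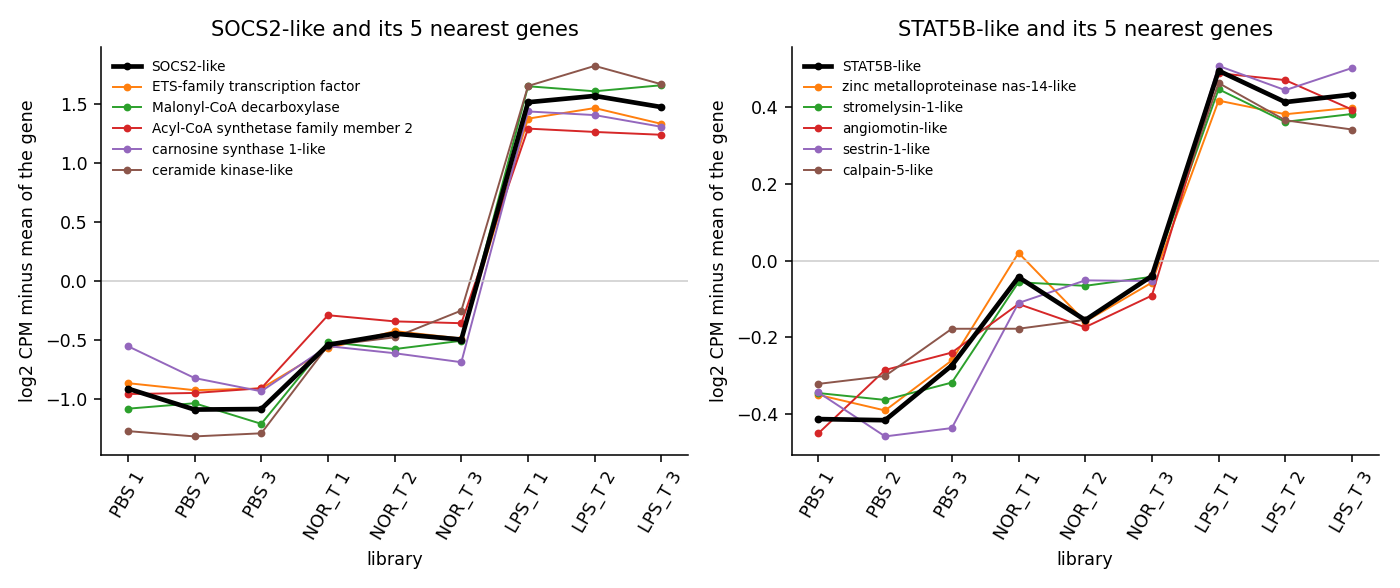
Gene-centred log2 CPM (y axis) in each of the 9 libraries (x axis) for each member and the 5 named genes most like it. The genes around the SOCS2-like gene share its step in LPS_T, and those around the STAT5B-like gene share a smaller one; the RMS differences are 0.111 to 0.213 and 0.0439 to 0.0819.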

How the data were processed

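The libraries were made from poly(A) RNA of hemocytes and read paired-end, per the labels' protocols, and the kit keeps no strand information. The authors used HISAT, StringTie and edgeR, per the submitters' processing notes, which give no versions, and neither the genome build nor the counter is named in the sources used here. Per the file headers, the deposited table gives each gene an estimated count (an expected count, rounded here to whole numbers) and an FPKM, scaled by the authors to gene length and depth, in every library. Counts summed to between 19894628 and 45831950 per library, and low values lay near multiples of 3.63 to 3.78, taken as the counts per fragment.

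The members and all lists were chosen with earlier results of these data known. The filter was FPKM 1 or more in 3 or more libraries. Testing used edgeR 4.0.16 (TMM, quasi-likelihood, a mean for each group, 9 libraries), with Benjamini-Hochberg adjustment over all 11678 genes and a threshold of 0.05 on the adjusted p. On simulated counts the fit recovered 37.3% of log2 differences of 0.5, 76.1% of those of 1 and 87.9% of those of 2. Each size had 66 or 67 genes, and 4.96% of calls were false. A gene that was not called may therefore still differ. Far fewer genes were changed in the simulation than were called in the data. Word lists were matched to descriptions, and 16 of 122 genes that share only a word with their list were left out by name. In each list other than SOCS, STAT and JAK, genes are named from the 2 called genes with the smallest adjusted p per comparison. The 3 neighbours a side and the 5 genes of most similar profile (log2 CPM, prior count 2) were also named. Limma 3.58.1, DESeq2 1.42.0, other scalings, pseudocounts and filters, a replicate block and the omission of each library in turn were the alternatives. No pair of libraries within a group had identical values. The median squared difference of such a pair was 2.17 to 2.93 times that of counting noise. Pairs with PBS 1 gave 7.14 and 7.77 instead. These values are without TMM scaling. R 4.3.3, Python 3.11.15 and matplotlib 3.10.9 were used.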

Additional observations from a re-analysis of the deposited data

How the results depend on the processing

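The order PBS, NOR_T, LPS_T of both members held under every alternative, and 20 settings were compared in all. With library size alone, limma on log2(FPKM + 1) and limma on log2(FPKM + 0.1), which moved the median of all genes in LPS_T against PBS from 0.0271 to 0.13, 0.17 and 0.21, the SOCS2-like difference from PBS was 2.67, 2.72 and 2.73 in LPS_T and 0.63, 0.68 and 0.69 in NOR_T. The STAT5B-like difference was 0.92, 0.97 and 0.99 in LPS_T and 0.37, 0.43 and 0.44 in NOR_T. Leaving out each library gave, for LPS_T against PBS, NOR_T against PBS and LPS_T against NOR_T, 2.52 to 2.59, 0.50 to 0.60 and 1.99 to 2.04 for SOCS2-like and 0.77 to 0.86, 0.26 to 0.34 and 0.49 to 0.54 for STAT5B-like. The 2 limma fits called 2467 and 2172, 1343 and 1212, and 1413 and 1211 genes in these comparisons. Of the cytokine signalling genes, limma with 0.1 called 21, 10 and 11; NOR_T against PBS had 10 with limma and 1, and 15 with library size alone. The difference of STAT5A-like in NOR_T against PBS, which was not called, turned to 0.0751 with library size alone, 0.0114 without a filter, 0.00887 with filterByExpr and 0.14 in both limma fits, and ranged from -0.0429 to 0.0389 without single libraries. The cause was not tested. Same-numbered libraries of different groups deviated from their group means with correlations of -0.0248 to 0.0797, and differently numbered ones with -0.102 to 0.0727. These ranges overlapped, and no label says whether equal numbers mark paired samples. With the replicate block the calls were 3755, 2793 and 2423 and the SOCS2-like difference in LPS_T 2.55. With the untrimmed word lists, chosen after seeing the data, 36, 27 and 20 genes were called. Counts of few fragments limit the lowest genes named, such as the interleukin-17-like gene, and intervals cover these libraries alone.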

Other observations

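Genes that share a GO term of signalling with either member were looked at as a further group, chosen after values had been seen; of these 36 genes, 23 were tested and 2 were also in the word lists. In LPS_T against PBS 6 were higher and 4 lower by edgeR, or 43.5%, where 33% of all tested genes were called. In NOR_T against PBS 3 were higher and 1 lower, or 17.4%, below the 24.9% of all genes, and in LPS_T against NOR_T 5 were higher and 2 lower, or 30.4% against 21.5%. The smallest adjusted p in each comparison with PBS belonged to a fall, that of an NF-kappa-B inhibitor alpha-like gene. It went from 32.1 CPM in PBS to 20.9 in NOR_T (log2 -0.62, edgeR adjusted p = 8.88e-04) and 17.5 in LPS_T (log2 -0.88, edgeR adjusted p = 2.57e-05). Forkhead box O-like, hamartin-like and an uncharacterized gene were also lower in LPS_T than in PBS (log2 -0.66, -0.46 and -0.39, edgeR adjusted p = 0.0369, 0.0497 and 0.00404). A lipopolysaccharide-binding protein-like gene, of a family that recognises bacterial surfaces, rose from 71.3 ± 7.76 CPM in PBS to 90.5 ± 3.42 in NOR_T (log2 0.35, SE 0.08, edgeR adjusted p = 0.00469) and 99.3 ± 3.79 in LPS_T (log2 0.48, SE 0.08, edgeR adjusted p = 2.52e-04). Both of its calls held under every alternative run. A gene for interleukin-1 receptor-associated kinase 4, which carries the signal of Toll-like receptors, was at 29.2 ± 1.49, 28.8 ± 1.58 and 38.4 ± 3.01 CPM in PBS, NOR_T and LPS_T. It was higher in LPS_T than in PBS by 0.40 (SE 0.10, edgeR adjusted p = 0.00533). A dual oxidase 2-like gene, for an enzyme that makes hydrogen peroxide, was among the abundant transcripts, at 4620.0 ± 164, 4430 ± 157 and 5419 ± 66.5 CPM. It was higher in LPS_T than in PBS by 0.23 (SE 0.05, edgeR adjusted p = 0.00422), a call that limma on log2(FPKM + 1) ended (adjusted p = 0.0699). The part of the ciliary and gonad markers, which were also highest in LPS_T, was not tested here.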
